A study of Homo sapiens with 4 samples.

Results

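The genes described here are 43 genes of the G2 phase and of mitosis, listed by name and grouped into 8 classes by the role of their proteins. They were read from an Illumina bead array study of MCFDCIS cells, a human line that the series title calls a breast cancer line of basal subtype. Each gene was represented by its brightest probe among those with a detection p under 0.05 on at least 2 arrays, and all 43 listed genes had such a probe, out of 11200 genes measured by the same rule. On all 4 arrays 42 of the 43 were detected, and MKI67 was detected on 3.

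Cells were transfected with siRNA against Slug (siSNAI2 in the sample names) or with a control siRNA (siOTP NT), and RNA was collected 72 hours later, at about 70% confluence. Each transfection has 2 arrays, named as biological replicates with the letters A and B, and every array comes from the same line. All array names share the same number, with suffixes A and B for the arrays of replicate A and I and J for those of replicate B. Replicate letter and array suffix therefore cannot be told apart. Nothing in the labels says whether a replicate letter stands for a shared day or stock of cells. The spread behind a p-value here starts from that between 2 arrays of this kind, and may be partly technical. The test then draws the spread of each probe toward that of all probes tested. Slug is the transcription factor encoded by SNAI2.

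Cells entering mitosis switch on cyclin B and its kinase CDK1, whose activity drives chromosome condensation and nuclear breakdown. Kinetochores then attach chromosomes to the spindle, and the spindle checkpoint holds back the anaphase-promoting complex until every chromosome is attached. CDC20 activates that complex, which marks cyclins and securin for destruction, and cytokinesis follows. Messenger RNAs of these genes accumulate in G2 and mitosis, so in a bulk culture their level moves with the share of cells in those phases. A lower signal from fewer such cells and one from less RNA per cell cannot be told apart here.

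Detected probes made up 39.8% to 40.8% of each array, with a median of 20 to 21 beads behind each probe. Across probes, normalized log2 intensities correlated at r = 0.991 between the Slug siRNA arrays, at 0.989 between the control arrays and at 0.981 to 0.988 between groups. The brightest SNAI2 probe read 8.57 and 8.51 with Slug siRNA in replicates A and B, against 8.95 and 9.01 with control siRNA (limma adjusted p = 0.315). Of the 6 basal epithelial markers with a probe, all were detected on every array, as were 6 of 8 luminal markers, while ESR1 was detected on none. Fibroblast markers were detected on all arrays for 0 of 7 genes. Endothelial markers were detected on all arrays for 1 of 5 (PECAM1), and leukocyte markers for 3 of 6 (CD14, CD68 and LYZ). PTPRC, another leukocyte marker, was detected on none.

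No G2 or mitosis gene passed the test of Slug siRNA against control siRNA. All 43 genes stood above an adjusted p of 0.05 in limma, where 0.116% of all genes were called, and the lowest adjusted p among them was 0.190. At an unadjusted p under 0.05, 2 members, AURKA and MKI67, were lower with Slug siRNA (6.87% of all genes) and 0 were higher (6.18% of all genes). These counts depend on the probe taken. In limma the second CDK1 probe was higher (unadjusted p = 0.035) and the second PTTG1 probe lower (unadjusted p = 0.038). The second AURKA probe had an unadjusted p of 0.123 in limma. Both Slug siRNA arrays lay below both control arrays for 9 members (21.5% of all genes) and above them for 3 (23.6% of all genes). The share of members without overlap is thus near that of all genes on the lower side and smaller on the higher side (6.98% against 23.6%).

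The 2 replicates gave different pictures of the group. All differences that follow are Slug siRNA minus control siRNA, in normalized log2 intensity. In replicate A the median difference over the 43 genes was 0.08, with 15 below 0 (47.7% of all genes). In replicate B it was -0.28, with 38 below 0 (49.6% of all genes). The median over all genes was 0.02 in replicate A and 0.002 in replicate B. For 42 of the 43 genes the difference was lower in replicate B than in replicate A, which held for 51.9% of all genes; MKI67 was the exception. Each letter has 1 array per group, so whether the replicates differ was not tested.

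**Figure D1:**
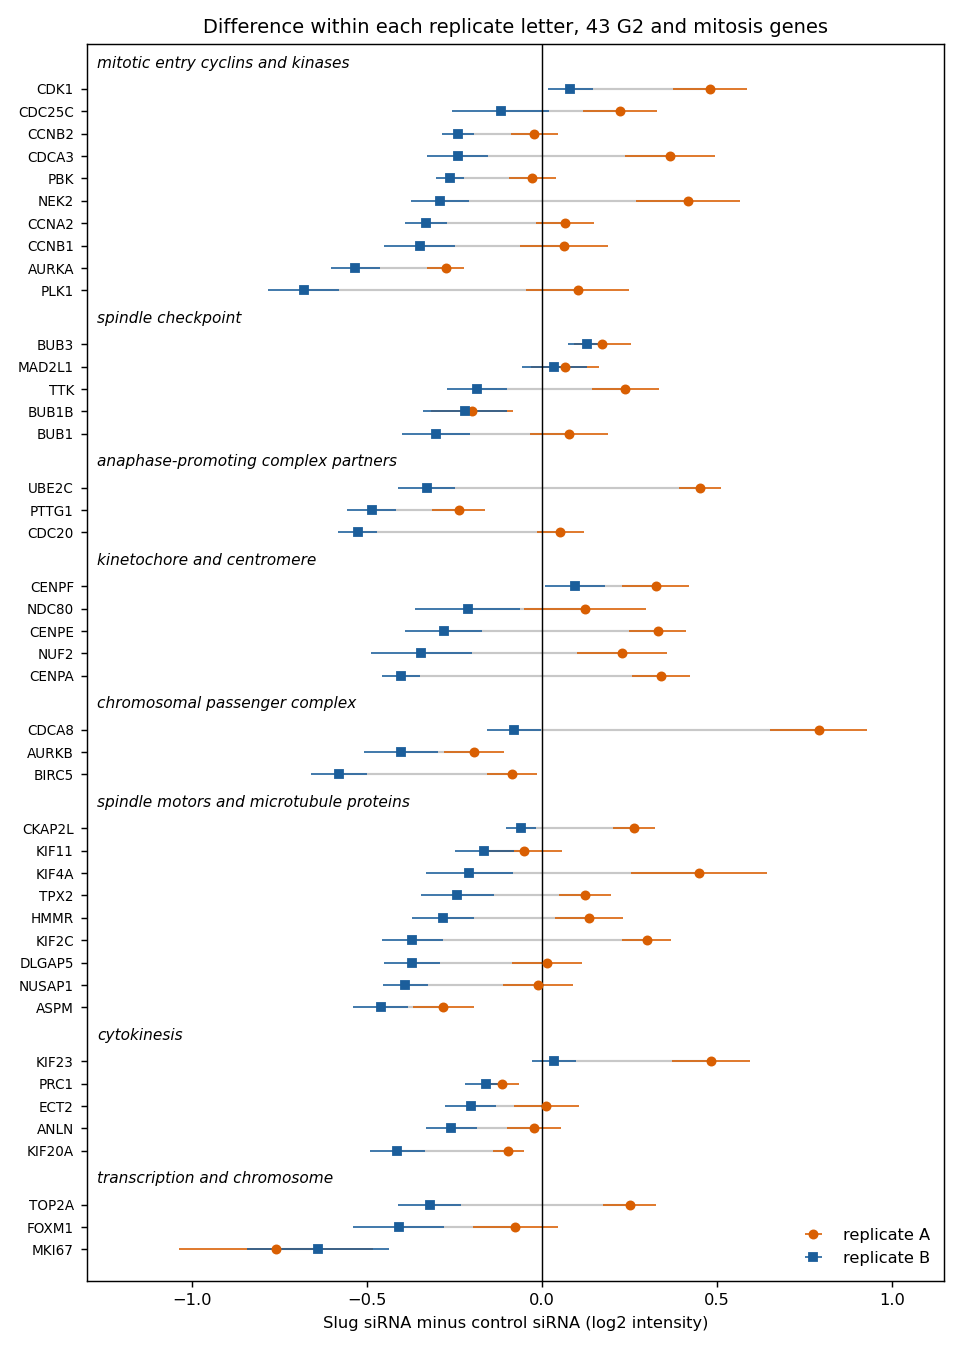
The horizontal axis gives the Slug siRNA minus control siRNA difference in log2 intensity for each of the 43 genes, grouped by role. Circles are replicate A, squares replicate B, and bars are 1 bead standard error on either side. In replicate B 38 squares lie left of 0, while 15 circles do so in replicate A.

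By direction, 15 genes were below control in both replicates (32.2% of all genes) and 5 were above it in both (34.8% of all genes). The other 23 were above control in replicate A and below it in replicate B, a pattern seen in 17.3% of all genes. Each array gives a standard error over the beads of a probe, which measures technical scatter and not the spread between cultures. Past 2 such standard errors, 31 members were below control in replicate B (21.1% of all genes) and 7 in replicate A (18.0% of all genes). Above control by the same margin were 1 member in replicate B (20.7% of all genes) and 16 in replicate A (20.4% of all genes). Across the 43 genes the differences of the 2 replicates correlated at Pearson r = 0.54 and Spearman rho = 0.49. Over all 11200 genes these were 0.58 and 0.50. These are correlations across genes of the same arrays, given as a description.

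Array by array, the Slug siRNA array of replicate B stood lowest. Relative to each gene's mean over the 4 arrays, the members had a median of 0.09 on Slug siRNA A and -0.17 on Slug siRNA B, against -0.02 on control siRNA A and 0.11 on control siRNA B. Slug siRNA B gave the lowest of the 4 values for 29 members (26.1% of all genes). It lay above Slug siRNA A for only 6 members (49.9% of all genes), and control siRNA B lay above control siRNA A for 29 (51.5% of all genes).

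**Figure D2:**
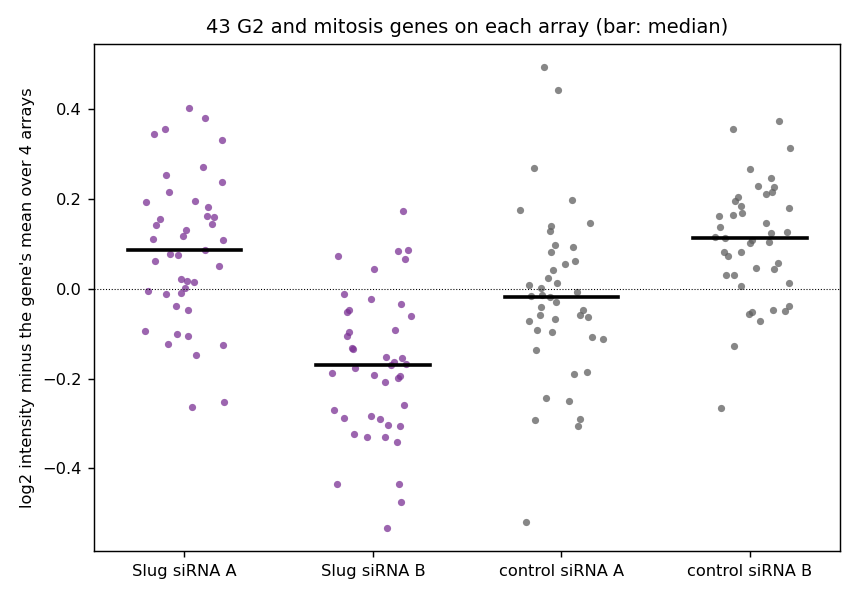
Each point is 1 of the 43 genes on 1 array, as log2 intensity minus that gene's mean over the 4 arrays, with Slug siRNA arrays on the left, control siRNA arrays on the right and a bar at the median. The median is lowest on Slug siRNA B (-0.17) and highest on control siRNA B (0.11).

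Over both replicates the median difference was -0.10, against 0.01 over all genes, and it rests on single arrays. It was 0.03 without Slug siRNA replicate B and -0.21 without Slug siRNA replicate A. Without control siRNA replicate A it was -0.16, and without control siRNA replicate B -0.014. Of the 43 genes, 29 were lower on average with Slug siRNA, but 12 members took the other sign when Slug siRNA replicate B was left out.

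Many genes of this group are repressed outside G2 through promoter elements known as CHR, bound by the MuvB core together with pocket proteins or with B-MYB and FOXM1, and depend on CCAAT boxes bound by NF-Y. As a description, the letters of both elements were searched in the RefSeq promoter windows of assembly GRCh38.p14. These windows run from 250 bases before to 50 bases after each gene's start. The CHR letters were TTTGAA or TTTAAA and the CCAAT box letters CCAAT, on both strands. CHR and CCAAT hits may overlap by a base, as in MKI67. A window was found for 35 of the 43 members, and the most upstream one was taken for the 5 genes with several. The CHR letters stood in 30 of these 35 windows (85.7%), compared with 24.4% of the 27305 genes with a window and 16.4% of the measured genes with one. At least 1 CCAAT box stood in 28 (80%), compared with 35.7% and 37.5%. Both stood in 24 members (68.6%), compared with 9.55% and 6.77%. A match is a description of the letters and does not show that a factor binds there.

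The 150 bases before the start are printed for 8 members, with CHR and CCAAT letters in capitals; on the other strand CCAAT reads ATTGG and TTTGAA reads TTCAAA. The first 6 lay below control in replicate B, by -0.24 (CCNB2) to -0.68 (PLK1), and CENPF and KIF23 lay above control in both replicates. They lie at chr16:23678739-23678888 on the plus strand (PLK1), chr1:43358831-43358980 on the plus strand (CDC20), chr5:69167000-69167149 on the plus strand (CCNB1), chr15:59104996-59105145 on the plus strand (CCNB2), chr2:26785906-26786055 on the plus strand (CENPA), chr10:128126424-128126573 on the minus strand (MKI67), chr1:214603045-214603194 on the plus strand (CENPF) and chr15:69414199-69414348 on the plus strand (KIF23), all in GRCh38.p14 and written 5′ to 3′ in the direction of the gene.
PLK1: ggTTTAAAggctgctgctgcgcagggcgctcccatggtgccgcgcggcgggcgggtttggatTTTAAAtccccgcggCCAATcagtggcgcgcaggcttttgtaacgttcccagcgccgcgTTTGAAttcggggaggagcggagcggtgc
CDC20: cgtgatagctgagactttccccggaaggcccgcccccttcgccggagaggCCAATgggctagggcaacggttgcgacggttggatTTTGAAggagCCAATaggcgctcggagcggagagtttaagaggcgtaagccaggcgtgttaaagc
CCNB1: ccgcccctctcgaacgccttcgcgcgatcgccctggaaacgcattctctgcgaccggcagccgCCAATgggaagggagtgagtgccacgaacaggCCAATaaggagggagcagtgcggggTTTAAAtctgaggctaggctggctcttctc
CCNB2: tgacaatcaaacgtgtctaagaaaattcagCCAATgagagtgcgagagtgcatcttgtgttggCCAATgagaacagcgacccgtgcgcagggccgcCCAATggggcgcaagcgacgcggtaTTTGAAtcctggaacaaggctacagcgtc
CENPA: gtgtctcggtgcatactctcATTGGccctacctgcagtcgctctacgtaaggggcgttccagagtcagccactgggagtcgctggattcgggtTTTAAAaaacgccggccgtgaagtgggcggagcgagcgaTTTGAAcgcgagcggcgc
MKI67: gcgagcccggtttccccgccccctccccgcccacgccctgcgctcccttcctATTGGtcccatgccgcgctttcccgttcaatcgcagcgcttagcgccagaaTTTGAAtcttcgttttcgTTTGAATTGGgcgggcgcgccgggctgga
CENPF: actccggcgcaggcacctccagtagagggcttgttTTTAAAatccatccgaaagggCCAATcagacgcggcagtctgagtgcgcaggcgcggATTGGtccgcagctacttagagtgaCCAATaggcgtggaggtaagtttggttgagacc
KIF23: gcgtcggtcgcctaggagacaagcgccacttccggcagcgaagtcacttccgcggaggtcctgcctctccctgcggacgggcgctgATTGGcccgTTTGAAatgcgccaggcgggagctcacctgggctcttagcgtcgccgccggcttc

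In these stretches CDC20 has its CHR letters between 2 CCAAT boxes, and CCNB1 and CCNB2 have 2 and 3 CCAAT boxes upstream of a single CHR. Of the printed genes above control in both replicates, CENPF has 3 CCAAT boxes and 1 CHR, and KIF23 has 1 of each. Every printed stretch holds both kinds of letters, so these stretches do not compare members with and without them. Over the 24 members with both kinds of letters the median difference was 0.07 in replicate A and -0.26 in replicate B, with 20 of 24 below 0 in replicate B. Over the other 11 members with a window it was 0.12 in replicate A and -0.29 in replicate B, with all 11 below 0 in replicate B.

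The class of mitotic entry cyclins and kinases also holds CDC25C and CDCA3, which are neither. In it, 9 of 10 genes lay below control in replicate B and 3 of 10 in replicate A, with class medians of -0.28 and 0.08. PLK1, the Polo-like kinase that acts from mitotic entry to cytokinesis, read 7.88 and 7.30 with Slug siRNA in replicates A and B, against 7.78 and 7.98 with control siRNA. The Slug siRNA array of replicate B was the low one of the 4, and the groups overlapped. Its difference was 0.10 in replicate A and -0.68 in replicate B (log2 fold change -0.29, SE 0.23, adjusted p = 0.669). AURKA, the Aurora kinase of centrosomes and spindle poles, read 10.85 and 10.65 with Slug siRNA, against 11.13 and 11.18 with control siRNA. Both Slug siRNA arrays were below both control arrays (log2 fold change -0.40, SE 0.17, unadjusted p = 0.045, adjusted p = 0.382). On its second probe the log2 fold change was -0.34, with -0.07 in replicate A and -0.62 in replicate B. CDK1, the catalytic partner of the mitotic cyclins, had 10.82 and 10.62 with Slug siRNA, against 10.34 and 10.54 with control siRNA. Both Slug siRNA arrays were thus above both control arrays, by 0.48 in replicate A and 0.08 in replicate B (log2 fold change 0.28, SE 0.17, adjusted p = 0.573).

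The cyclins themselves kept closer to control in replicate A than in replicate B. CCNB1, the main mitotic cyclin, had a difference of 0.06 in replicate A and -0.35 in replicate B. CCNB2 gave -0.02 and -0.24, and CCNA2, the cyclin of S phase and G2, gave 0.07 and -0.33. CDC25C, the phosphatase that activates CDK1, stood at 0.22 in replicate A and -0.12 in replicate B. CDCA3, a trigger of mitotic entry that promotes loss of WEE1, stood at 0.37 and -0.24. NEK2, a kinase of centrosome separation, gave 0.42 in replicate A and -0.29 in replicate B, and the mitotic kinase gene PBK gave -0.03 and -0.26. For all 7 of these the log2 fold change over both replicates lay between -0.14 and 0.06.

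Of the 5 spindle checkpoint genes 1 lay below control in replicate A (median 0.08) and 3 in replicate B (median -0.19). BUB3, which docks BUB1 and BUBR1 at kinetochores, read 12.32 and 12.32 with Slug siRNA, against 12.15 and 12.19 with control siRNA. The groups did not overlap, and the log2 fold change was 0.15 (SE 0.16, adjusted p = 0.771), although its other 2 probes gave 0.26 and 0.01. BUB1B, which encodes the checkpoint protein BUBR1, read 6.96 and 6.97 with Slug siRNA, against 7.16 and 7.19 with control siRNA. Its Slug siRNA arrays were both lower (log2 fold change -0.21, SE 0.16, adjusted p = 0.651). TTK, the checkpoint kinase also known as MPS1, had 9.42 and 9.08 with Slug siRNA, against 9.18 and 9.27 with control siRNA. It was above control in replicate A and below it in replicate B (log2 fold change 0.03, SE 0.18, adjusted p = 0.974). The kinase gene BUB1 had differences of 0.08 in replicate A and -0.30 in replicate B. MAD2L1, whose product MAD2 binds and inhibits CDC20, had 0.07 and 0.04. The second, dimmer MAD2L1 probe had 0.45 and -0.09.

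The partners and substrates of the anaphase-promoting complex were all below control in replicate B. PTTG1, which encodes securin, the inhibitor of separase, read 12.97 and 12.69 with Slug siRNA, against 13.21 and 13.18 with control siRNA. Both Slug siRNA arrays were below both control arrays (log2 fold change -0.36, SE 0.17, adjusted p = 0.452). A second PTTG1 probe stood at -0.46, with -0.67 in replicate A and -0.25 in replicate B. Its lower difference was thus in replicate A, whereas the brightest probe had -0.24 in replicate A and -0.49 in replicate B. UBE2C, the ubiquitin-conjugating enzyme of the complex, read 11.95 and 11.32 with Slug siRNA, against 11.50 and 11.65 with control siRNA. The highest and the lowest of its 4 values were thus both Slug siRNA arrays (log2 fold change 0.06, SE 0.23, adjusted p = 0.955). CDC20 had a difference of 0.05 in replicate A and -0.53 in replicate B, where the ratio of control over Slug siRNA was 1.44. Among the subunits of the complex, ANAPC1 passed the test, with 7.46 and 7.54 for Slug siRNA, against 9.17 and 9.13 for control siRNA (log2 fold change -1.65, adjusted p = 0.033). On the second ANAPC1 probe the arrays differed by -0.34 (adjusted p = 0.443).

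At the kinetochore and centromere all 5 genes were above control in replicate A (median 0.33) and 4 were below it in replicate B (median -0.28). CENPA, the histone H3 variant of centromeres, read 10.10 and 9.75 with Slug siRNA, against 9.76 and 10.16 with control siRNA. The sign was opposite in the 2 replicates, and the log2 fold change was -0.03 (SE 0.21, adjusted p = 0.975). CENPF, a kinetochore protein that also marks G2 nuclei, read 9.03 and 8.48 with Slug siRNA, against 8.71 and 8.39 with control siRNA. It was above control in both replicates, but the arrays of the 2 groups overlapped, because both replicate B arrays read lower than both replicate A arrays (log2 fold change 0.21, SE 0.23, adjusted p = 0.785). Without Slug siRNA replicate B its value was 0.49, and without Slug siRNA replicate A it was -0.06. NUF2, a subunit of the NDC80 complex that binds microtubules, read 6.99 and 6.69 with Slug siRNA, against 6.76 and 7.04 with control siRNA. Its difference was 0.23 in replicate A and -0.34 in replicate B (log2 fold change -0.06, SE 0.19, adjusted p = 0.947), while its partner NDC80 had 0.12 and -0.21. The second NUF2 probe was above control in both replicates, by 0.30 in replicate A and 0.04 in replicate B (log2 fold change 0.17). The motor gene CENPE had 0.33 in replicate A and -0.28 in replicate B.

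In the chromosomal passenger complex, which corrects faulty attachments and later drives cytokinesis, all 3 genes were below control in replicate B (median -0.40). BIRC5, which encodes survivin, read 9.79 and 9.71 with Slug siRNA, against 9.88 and 10.29 with control siRNA. The groups did not overlap (log2 fold change -0.33, SE 0.19, adjusted p = 0.546). Its second probe had differences of 0.08 in replicate A and -0.81 in replicate B. CDCA8, which encodes borealin, read 9.25 and 9.07 with Slug siRNA, against 8.46 and 9.15 with control siRNA. Control siRNA replicate A was the low array, with a difference of 0.79 in that replicate (log2 fold change 0.36, SE 0.24, adjusted p = 0.616). AURKB, the Aurora kinase of this complex, had -0.19 in replicate A and -0.40 in replicate B.

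All 9 genes of spindle motors and microtubule proteins were below control in replicate B (median -0.28), and 3 were below it in replicate A (median 0.12). ASPM, a protein of spindle poles, read 10.10 and 9.41 with Slug siRNA, against 10.38 and 9.87 with control siRNA. It was lower in each replicate, yet the arrays overlapped between groups, since Slug siRNA A read above control siRNA B (log2 fold change -0.37, SE 0.28, adjusted p = 0.653). KIF4A, a chromosome-bound kinesin, read 7.20 and 7.04 with Slug siRNA, against 6.75 and 7.24 with control siRNA (log2 fold change 0.12, SE 0.21, adjusted p = 0.881). KIF2C, a kinesin that takes microtubules apart at centromeres, read 9.19 and 8.65 with Slug siRNA, against 8.89 and 9.02 with control siRNA (log2 fold change -0.04, SE 0.21, adjusted p = 0.972). Both kinesins were above control in replicate A and below it in replicate B. Their differences were 0.45 and -0.21 for KIF4A and 0.30 and -0.37 for KIF2C.

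The remaining spindle genes followed with smaller differences in replicate A. KIF11, the motor that pushes spindle poles apart, had -0.05 in replicate A and -0.16 in replicate B, and its 2 groups did not overlap. TPX2, the activator of Aurora A on spindles, gave 0.12 and -0.24. NUSAP1, which bundles spindle microtubules, gave -0.01 and -0.39, but its second, dimmer probe gave only -0.04 and -0.10. DLGAP5, a microtubule-stabilising protein of the spindle, gave 0.01 and -0.37. HMMR, the hyaluronan receptor gene whose product also binds spindle microtubules, gave 0.13 and -0.28. CKAP2L, a spindle protein gene, had 0.26 in replicate A and -0.06 in replicate B.

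Cytokinesis genes were below control for 3 of 5 in replicate A (median -0.02) and 4 of 5 in replicate B (median -0.20). KIF20A, a kinesin of the central spindle, read 10.35 and 9.997 with Slug siRNA, against 10.45 and 10.41 with control siRNA. Both Slug siRNA arrays were lower, most of all that of replicate B (log2 fold change -0.25, SE 0.18, adjusted p = 0.636). KIF23, the motor subunit of centralspindlin, read 9.32 and 9.19 with Slug siRNA, against 8.83 and 9.15 with control siRNA. Its groups did not overlap either, with the Slug siRNA arrays higher (log2 fold change 0.26, SE 0.18, adjusted p = 0.624), but its second, dimmer probe gave -0.13. PRC1, which cross-links the central spindle, had -0.11 in replicate A and -0.16 in replicate B. ANLN, the scaffold of the contractile ring, had -0.02 and -0.26, and its groups did not overlap. ECT2, the exchange factor that activates RhoA for furrowing, had 0.01 and -0.20.

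Of the genes for transcription and chromosome structure, all 3 were below control in replicate B (median -0.41). MKI67, the gene of the proliferation marker Ki-67, read 5.09 and 4.92 with Slug siRNA, against 5.85 and 5.56 with control siRNA. Both Slug siRNA arrays lay below both control arrays, by 0.76 in replicate A and 0.64 in replicate B on the log2 scale, as the only member that did not have the lower difference in replicate B. Its log2 fold change was -0.70 (SE 0.18, unadjusted p = 0.0058, adjusted p = 0.190). The probe is dim, with a detection p of 0.051 on Slug siRNA B, and the size of its difference depends on the background setting. The log2 fold change was -0.21 without background correction and -0.38 with an offset of 50, where that of AURKA was more negative (-0.38 and -0.40). TOP2A, the topoisomerase that untangles sister chromatids, read 11.13 and 10.78 with Slug siRNA, against 10.88 and 11.10 with control siRNA. Its sign was opposite in the 2 replicates (log2 fold change -0.03, SE 0.19, adjusted p = 0.970). FOXM1, the transcription factor that activates many of these genes, had -0.08 in replicate A and -0.41 in replicate B without overlap between groups, while both differences of its second, dimmer probe were within 0.02 of 0.

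**Figure D3:**
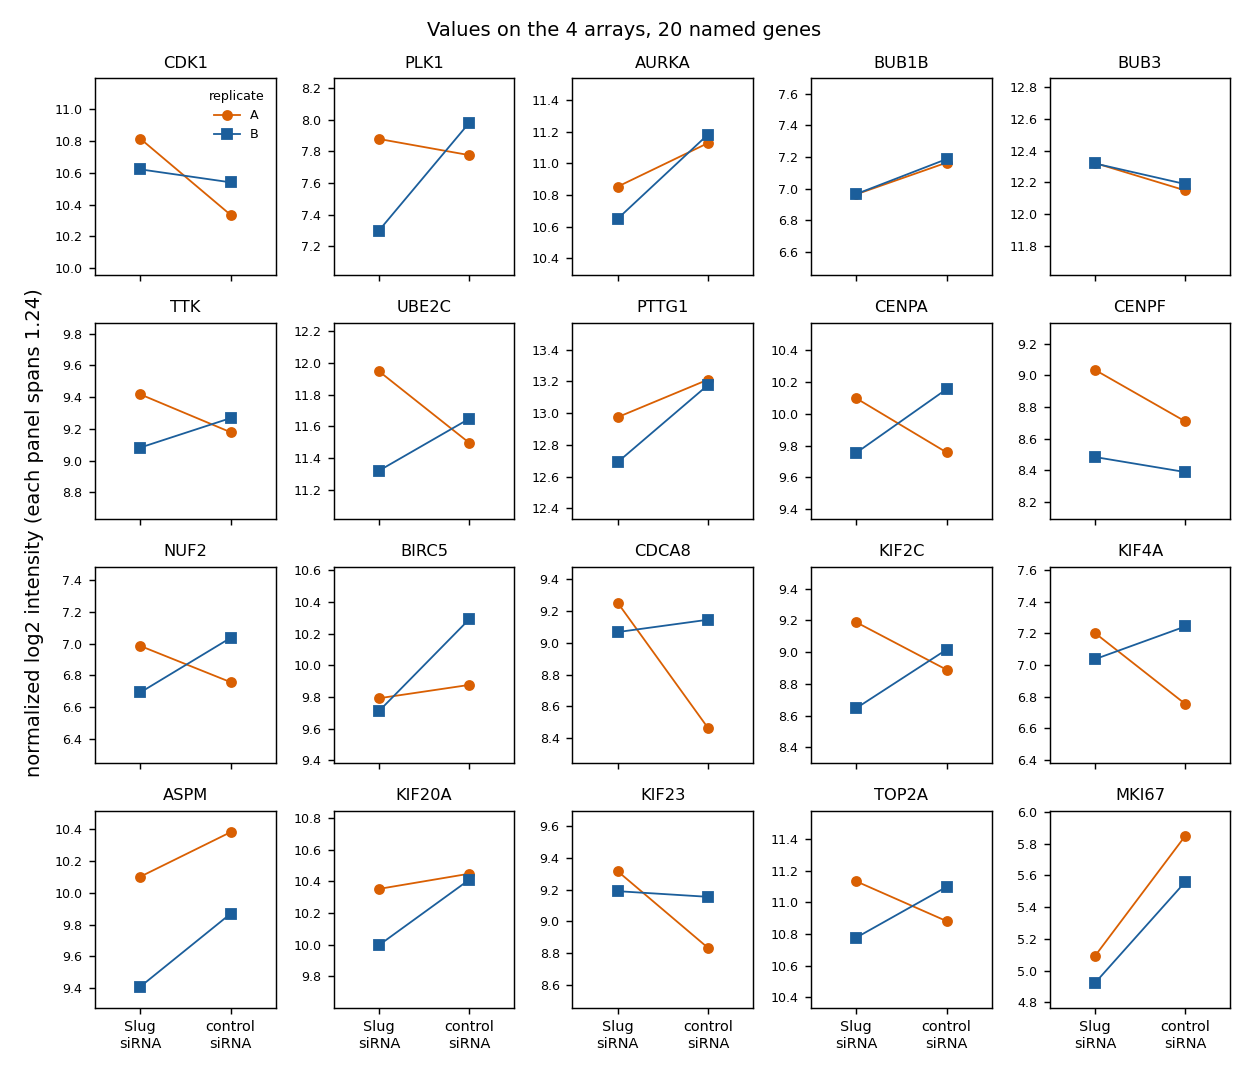
Normalized log2 intensity of 20 genes with Slug siRNA (left in each panel) and control siRNA (right), with circles joined for replicate A and squares joined for replicate B. All panels span 1.24 log2 units. MKI67 and AURKA are lower with Slug siRNA in both replicates, CDK1 and KIF23 are higher in both, and the lines of UBE2C, CENPA and KIF2C cross.

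Further probes on the same arrays were kept for 18 of the 43 genes. Of their 20 other probes, 18 had the sign of the brightest probe in replicate A, 15 in replicate B and 18 over both replicates. The third CDC25C probe stood at 0.76 in replicate A and 0.32 in replicate B, above the other 2 probes of that gene. The second probe of CDK1 gave 0.55 in replicate A and 0.30 in replicate B, so both of its probes were above control in each replicate.

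A list of 70 further mitotic genes, of which 65 were measured, had median differences of 0.15 in replicate A and -0.08 in replicate B. In this list 19 genes were below control in replicate A and 39 in replicate B, and for 51 the difference was lower in replicate B. None passed limma's adjusted threshold in either direction. At limma's unadjusted p under 0.05, 3 were higher (6.18% of all genes) and 2 lower (6.87% of all genes). WEE1, the kinase that restrains CDK1, read 8.60 and 8.71 with Slug siRNA, against 7.67 and 7.91 with control siRNA (log2 fold change 0.87, adjusted p = 0.107). CDC25A, the phosphatase of S phase and mitotic entry, read 9.17 and 9.62 with Slug siRNA, against 8.22 and 8.91 with control siRNA (log2 fold change 0.83, adjusted p = 0.275). Both genes were thus above control in each replicate.

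S phase and replication genes differed from the mitotic members in which array was low. For 44 of 46 listed genes, the median difference was 0.27 in replicate A and 0.11 in replicate B, with 6 and 16 genes below control. None passed in limma. At limma's unadjusted p under 0.05, 4 were higher (6.18% of all genes) and 0 lower (6.87% of all genes). CCNE1, the cyclin of S phase entry, had differences of 1.40 and 0.99 (adjusted p = 0.254), and POLE2, a subunit of DNA polymerase epsilon, had 1.04 and 0.63 (adjusted p = 0.292). Replicate B read above replicate A for 40 of the 44 genes with Slug siRNA (median 0.42) and for 41 with control siRNA (median 0.62). The mitotic members had -0.25 and 0.11 for the same differences, so Slug siRNA B lay above Slug siRNA A for S phase genes and below it for mitotic genes. The part of this replicate difference in the values of the mitotic genes was not tested.

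Transcription regulators of the cell cycle (20 of 21 measured) had medians of 0.04 in replicate A and 0.13 in replicate B, and 0 passed. At limma's unadjusted p under 0.05, 1 was higher (6.18% of all genes) and 2 were lower (6.87% of all genes). E2F5, a repressor of the E2F family, stood 0.80 above control (adjusted p = 0.111), and RBL1, which encodes the pocket protein p107, 0.76 above it (adjusted p = 0.458). Of 12 subunits of the anaphase-promoting complex 10 were measured, with medians of -0.01 in replicate A and 0.08 in replicate B, and ANAPC1 was the only one past the threshold. Only 4 of 8 listed inhibitors of cyclin-dependent kinases were measured, and none passed in limma, though 3 were higher at an unadjusted p under 0.05 (6.18% of all genes). CDKN1A, which encodes p21, read 13.37 and 13.05 with Slug siRNA, against 12.73 and 12.56 with control siRNA (log2 fold change 0.56, adjusted p = 0.279). CDKN2D, which encodes p19, had differences of 0.81 in replicate A and 0.21 in replicate B (adjusted p = 0.341).

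**Figure D4:**
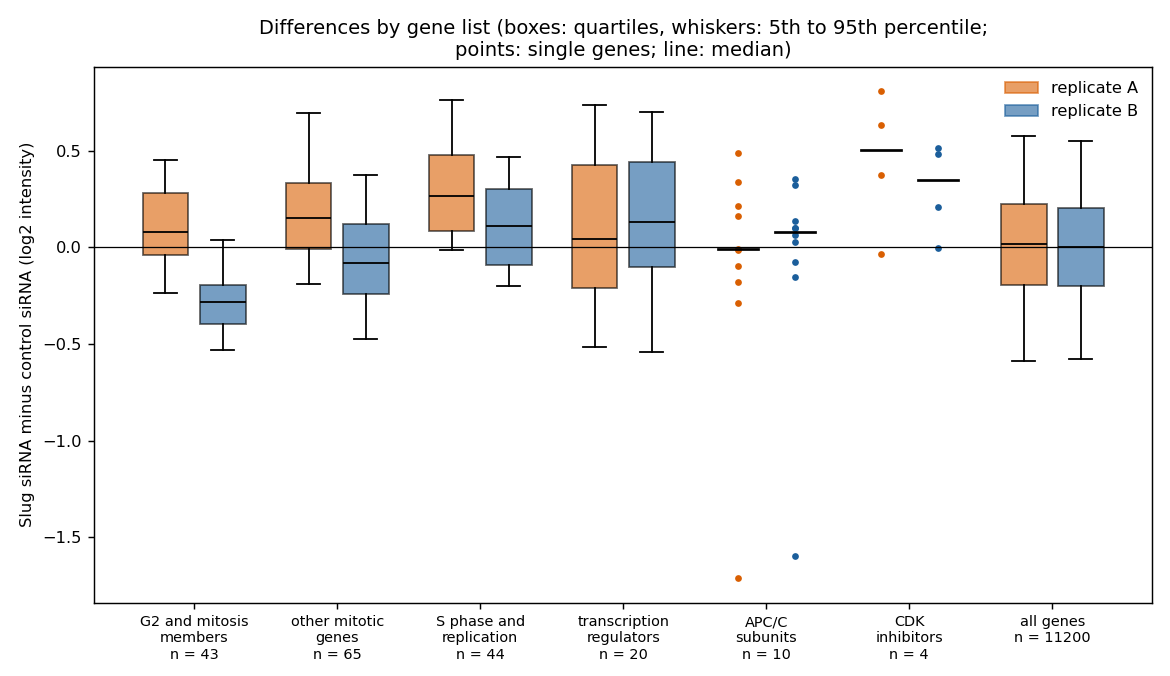
Slug siRNA minus control siRNA difference in log2 intensity by gene list, with replicate A on the left and replicate B on the right of each pair. Boxes show quartiles and whiskers the 5th to 95th percentile; lists of 10 genes or fewer are shown as single genes with a line at the median. The mitotic members have medians of 0.08 and -0.28, and all genes have 0.02 and 0.002.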

How the data were processed

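Expression was measured on 4 Illumina bead arrays, 2 from Slug siRNA cells and 2 from control siRNA cells. For each probe the authors deposited a mean bead intensity, which the file marks as not normalized and which is linear. A detection p-value, a bead standard error and the number of beads were deposited with it; 8 further columns of per-sample values were not used. The authors' deposited normalized intensity table served as an alternative; the sources used here do not state how it was made.

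In R 4.3.3 with limma 3.58.1, background was corrected by the normal-exponential model from the detection p-values with an offset of 16, followed by quantile normalization and log2. Probes with a detection p under 0.05 on at least 2 arrays were kept (19446 of 47323). Gene symbols came from the platform annotation (1 symbol for 30113 probes, several for 8). Groups were compared across all kept probes with lmFit and eBayes, two-sided, with Benjamini-Hochberg adjustment and 2 residual degrees of freedom. To these eBayes added 5.1 prior degrees of freedom estimated from all kept probes, so a gene's SE is not that of its own arrays alone. An exact permutation test of 1 gene cannot go below a two-sided p of 0.333 with 2 arrays per group. The number of arrays limits the precision.

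The genes, their classes and the other lists were chosen with earlier results of these data known. Values on every array are given, in each class, for the genes with the highest and the lowest mean difference and with the widest gap between replicates. Of the other lists, genes past the threshold, or otherwise those with the largest absolute mean difference, are named. Bead standard errors were carried to log2 differences to first order. Figures were drawn with matplotlib 3.10.9.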

Additional observations from a re-analysis of the deposited data

How the results depend on the processing

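The median difference over the 43 genes ranged from -0.10 to -0.058 over both replicates under 7 alternatives of background, offset, scaling, filter, processing and probe choice, from 0.063 to 0.12 in replicate A and from -0.28 to -0.23 in replicate B. The count below control in replicate B was 37 to 39, and the count with a lower difference in replicate B was 41 or 42; these 2 counts were followed as alternatives chosen after seeing the data. No member passed limma's threshold in any of 12 alternatives, while the number of genes called over all genes moved from 13 to 158 without background correction, 217 with an offset of 50, 34 with median scaling, 0 without a filter on detection p, 124 with detection p under 0.01 on all 4 arrays and 3 with the authors' normalized intensities. Leaving out 1 array in turn gave 3 to 20 genes (6 without Slug siRNA A, 17 without Slug siRNA B, 3 without control siRNA A, 20 without control siRNA B); the cause of these moves was not tested. With the replicate number as a replicate block, on 1 residual degree of freedom, 356 genes and 0 members passed, and the lowest adjusted p of a member was 0.052 (MKI67). Same-numbered arrays deviated from their group means together (r = 0.36 across probes), but 2 pairs cannot show that the numbers pair the samples. Of 239 values for the 20 genes given on every array, 15 moved by more than that gene's own spread between replicates, 6 of them for MKI67. This limit is narrow for genes whose replicates lie close, such as MKI67, and wide for the others. UBE2C, for example, went from 0.06 to -0.25 without Slug siRNA A and was not counted. The counts therefore do not rank genes by stability. MKI67 is not measured under the stricter filter. The offset stays in the signal, which shrinks the log2 differences of dim probes, and MKI67 also lies near the detection limit. How far either moved its value was not tested.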
